A study of Mus musculus with 6 samples.

Results

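High mobility group (HMG) proteins are abundant, non-histone proteins that shape chromatin without reading long DNA words. The report covers 9 genes of their 3 classes, chosen by name from the HMGA, HMGB and HMGN families and matched by NCBI gene identifier: Hmga1, Hmga2, Hmgb1, Hmgb2, Hmgb3, Hmgn1, Hmgn2, Hmgn3 and Hmgn5. They are 9 of the 17254 genes listed in any of the 6 libraries, and all 9 passed the filter on low values, a mean of 1 or more in FPKM (fragments per length of transcript and size of library).

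The libraries came from cultured mouse neural stem and progenitor cells (NSPCs), a mixed population grown in N2 medium with EGF and bFGF. Libraries were made after 48 h without either compound (control), with 5 µM paraquat (PQ, a redox cycler that generates superoxide) or with 5 mM N-acetylcysteine (NAC, a thiol antioxidant), 2 libraries in each group. The cells were derived from Ink/Arf null animals, so every group lacks this locus by design, although only the labels of control library 1 and PQ library 1 carry a genotype, written Ink/Ark knockout, and a strain, C57BL/6. Those 2 libraries were made with a column kit and a standard Illumina protocol, and the other 4 with TRIZOL extraction and the BGISEQ-500 platform, so NAC has no column-kit library. No label says that the libraries of a group came from separate cultures, and p-values therefore measure only the spread between these samples. Expected counts (estimated reads per gene, which need not be whole) summed to between 9680436 and 10698241 per library.

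HMGA proteins hold AT-hooks that grip the minor groove of AT-rich DNA, HMGB proteins bend DNA with their HMG boxes, and HMGN proteins bind the nucleosome itself and compete with linker histone H1. In the developing brain Hmga2 is known for sustaining self-renewal of young neural stem cells, Hmgb2 is known as a gene of dividing progenitors, and HMGB1 is also known as a danger signal once it leaves the cell. The comparisons below ask how transcript levels of the 3 classes stood under an oxidant and under an antioxidant.

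In PQ against control, 1 of the 9 genes was higher, Hmga2, and 6 were lower, namely Hmgb1, Hmgb2, Hmgb3, Hmgn1, Hmgn2 and Hmgn5 (quasi-likelihood test of edgeR, Benjamini-Hochberg adjustment, BH, over the 11717 genes tested, adjusted p under 0.05). Across all genes tested, 9.76% were higher and 9.45% lower in this comparison. The median log2 fold change of the 9 genes was -0.47, beside -0.001 over all genes. In NAC against control, 1 gene was higher (Hmgn2) and 2 were lower (Hmga1 and Hmga2), where 9.01% of all genes were higher and 9.64% lower. In PQ against NAC, 2 genes were higher (Hmga1 and Hmga2) and 6 were lower, where 16.0% of all genes were higher and 15.7% lower. The first 2 comparisons share the control libraries, and each pair of comparisons shares a group, so they are not independent of each other. RNA came from whole cultures, and fewer cells of a type cannot be told apart from less RNA per cell.

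**Figure D1:**
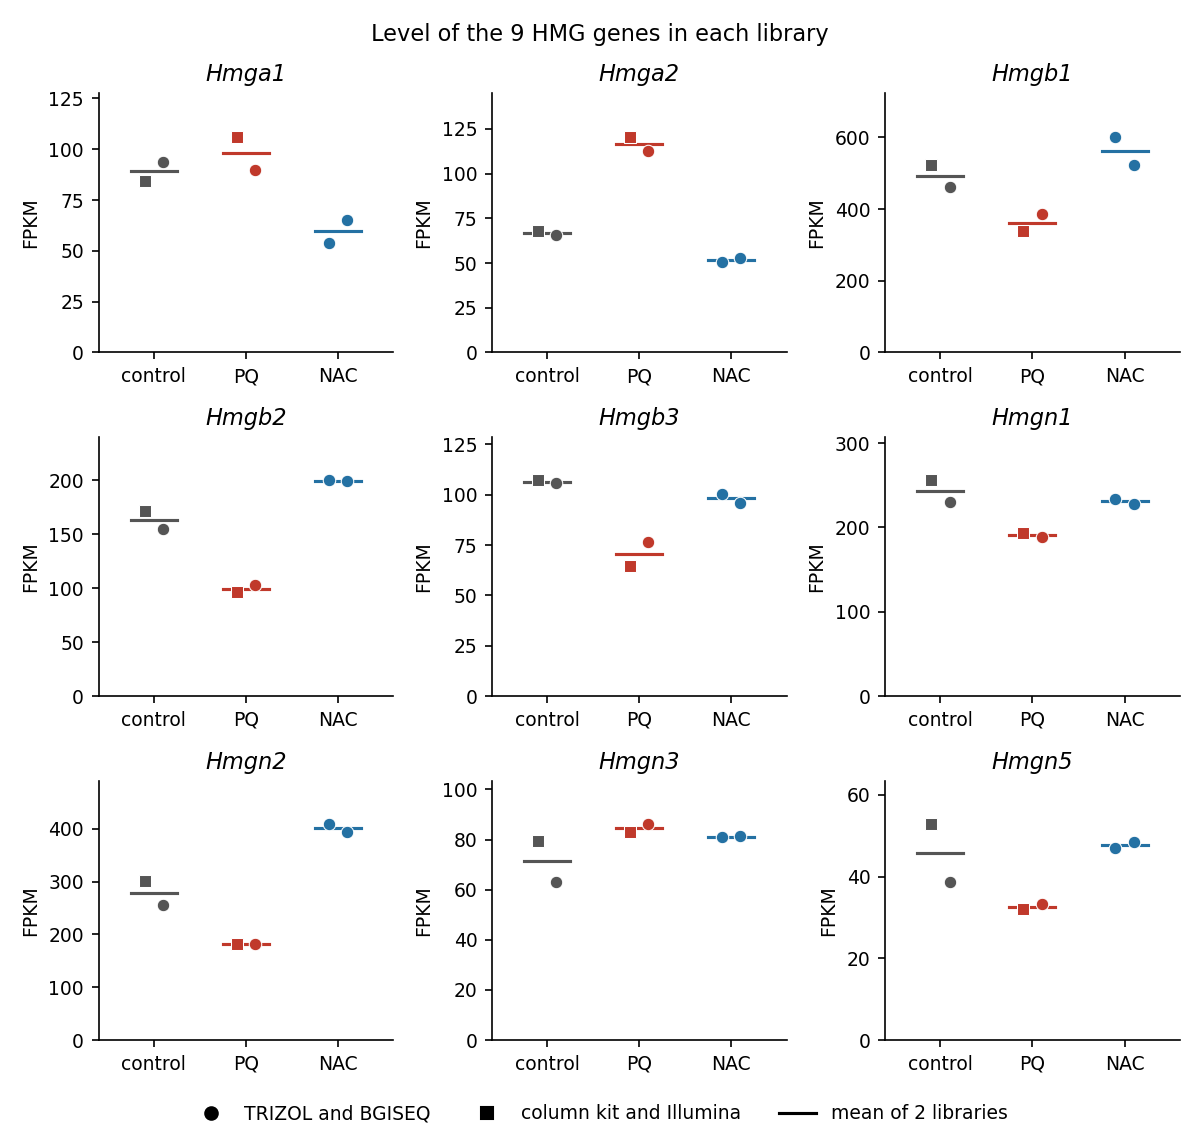
FPKM (vertical axes, from 0) of the 9 HMG genes in each of the 6 libraries, by group; circles are TRIZOL and BGISEQ-500 libraries, squares column-kit and Illumina libraries, and bars the mean of 2 libraries. Hmga2 is highest in the PQ libraries, whereas the 3 HMGB genes and Hmgn1, Hmgn2 and Hmgn5 are lowest there.

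The order of the levels, compared per length as FPKM, moved with treatment. In control libraries Hmgb1 was the most abundant member (mean FPKM 492.7 ± 43.2 SD, n = 2), at rank 126 of all genes listed. Hmgn2 (278.3 ± 32.8) and Hmgn1 (243.2 ± 17.6) followed, and their libraries overlapped. Hmgb2, Hmgb3 and Hmga1 came next at 162.6 ± 11.8, 106.5 ± 0.82 and 89.1 ± 6.82, with no overlap between neighbours. Hmgn3 (71.2 ± 11.7) and Hmga2 (66.9 ± 1.83) overlapped, and Hmgn5 was lowest at 45.8 ± 9.91. Hmga2 thus stood at place 8 of 9 in control libraries, at place 4 in PQ libraries with a mean of 116.7 ± 5.69, and at place 8 again in NAC libraries with 51.6 ± 1.51. In PQ libraries it lay above Hmgb2 (99.5 ± 4.33) without overlap, while Hmgb2 and Hmga1 (98.1 ± 11.5) overlapped there. Hmgb1 led in all 3 groups and Hmgn5 was last in all 3.

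Hmga2 encodes an AT-hook protein of embryonic and stem cells and lies at chr10:119798331-119913525 on the minus strand (mm9, GENCODE vM1). Its level was 68.2 and 65.6 FPKM in control, 121 and 113 in PQ and 50.6 and 52.7 in NAC libraries. Both PQ libraries were above all the others, both NAC libraries were below all the others, and no groups overlapped. Against control, Hmga2 rose with PQ by a log2 fold change of 0.78 ± 0.09 SE, 1.71-fold (adjusted p = 9e-06, edgeR quasi-likelihood, BH). The difference between PQ and control was 0.78 on the log2 scale within the column-kit libraries and also 0.78 within the TRIZOL libraries. With NAC it fell, with a log2 fold change of -0.42 ± 0.09 (adjusted p = 0.0024, edgeR quasi-likelihood, BH). PQ and NAC libraries differed by 2.29-fold (log2 1.20 ± 0.09, adjusted p = 2.1e-08, edgeR quasi-likelihood, BH). In this fit it was the largest difference of any member in any of the 3 comparisons. With the labelled protocol as a covariate, Hmga2 was at 1.16 and Hmgn2 at -1.18 in PQ against NAC.

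Hmga2 is a textbook target of the let-7 family, and its sequence holds the sites for it. The mature let-7b-5p (RefSeq, chr15:85707325-85707346, plus strand, GRCm38.p6) is shown with its seed, bases 2 to 8, in capitals:
let-7b-5p: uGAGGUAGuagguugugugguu
The letters CTACCTC, which pair with this seed, occurred 4 times in the 3014 bases of the annotated 3′ UTR of Hmga2, in a search that was chosen after the values of Hmga2 had been seen. Of 19815 genes with an annotated 3′ UTR, 8.23% held at least 1 match and 9 genes held at least 4. Hmga1 held 1 match, and the other 7 members held 0 in theirs. Mature miRNAs were not analysed here, and a match is a description of letters, not of regulation in these cells. In a list of 10 genes around Hmga2 (let-7 hosts, Dicer1, RNA-binding proteins that stabilise it and the Cdkn2a locus that it is known to repress), 5 were tested and 0 passed the test in PQ against control, in NAC against control and in PQ against NAC (edgeR quasi-likelihood, BH). Of these 5, Mirlet7c-2 had at most 3 expected counts in a library, too few for its test to say anything. Igf2bp2, an RNA-binding protein and the most abundant gene of the list, measured 56.7 and 53.8 FPKM in control, 63.5 and 59.8 in PQ and 56.3 and 56.2 in NAC libraries. Lin28a, Lin28b and Igf2bp1, which block let-7 or shield its targets in embryonic tissue, had group means of at most 0.03 FPKM. Cdkn2a, part of the deleted locus, was still listed with between 120 and 162 expected counts per library, and a count per gene does not tell which exons gave them.

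Hmga1 encodes the other AT-hook protein, common in proliferating and embryonic cells. It lies at chr17:27693565-27700619 on the plus strand (mm9). Its level was 84.3 and 94.0 FPKM in control, 106 and 90.0 in PQ and 54.0 and 65.1 in NAC libraries. Control and PQ libraries overlapped, and both NAC libraries were below all the others. In PQ against control the log2 fold change was 0.12, with a 95% interval from -0.11 to 0.36 (adjusted p = 0.48, edgeR quasi-likelihood, BH). Within protocols the values were 0.31 in the column-kit libraries and -0.07 in the TRIZOL libraries. With NAC, Hmga1 fell by 0.61 ± 0.11 on the log2 scale (adjusted p = 0.00066, edgeR quasi-likelihood, BH), and PQ lay 1.66-fold above NAC (adjusted p = 6.1e-05).

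HMGB1, HMGB2 and HMGB3 carry a pair of HMG boxes and an acidic tail, and all 3 genes were lower in PQ libraries. Hmgb1, the most widely expressed of them, lies at chr5:149858278-149865089 on the minus strand (mm9). Its level was 523 and 462 FPKM in control, 338 and 385 in PQ and 602 and 524 in NAC libraries. Both PQ libraries were below all the others, whereas the lower NAC library stood next to the higher control library. Hmgb1 fell with PQ by 0.47 ± 0.10 on the log2 scale, a 1.39-fold difference (adjusted p = 0.0033, edgeR quasi-likelihood, BH). Within protocols the difference was -0.68 in the column-kit libraries and -0.27 in the TRIZOL libraries. Without PQ library 1 the value was -0.37 and no longer passed (adjusted p = 0.085, edgeR quasi-likelihood, BH). The NAC libraries did not pass against control (log2 0.15, 95% interval -0.07 to 0.36, adjusted p = 0.36), and PQ fell by 0.62 ± 0.10 against NAC (adjusted p = 0.00015, edgeR quasi-likelihood, BH).

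Hmgb2, a gene of cycling cells, lies at chr8:59990640-59994796 on the plus strand (mm9). It measured 171 and 154 FPKM in control, 96.4 and 103 in PQ and 200 and 199 in NAC libraries. The groups did not overlap, with PQ lowest and NAC highest. With PQ, Hmgb2 fell by 0.74 ± 0.09 on the log2 scale, 1.67-fold (adjusted p = 2.7e-05, edgeR quasi-likelihood, BH). The within-protocol differences were -0.87 in the column-kit libraries and -0.59 in the TRIZOL libraries. In NAC against control the log2 fold change was 0.25 with a 95% interval from 0.06 to 0.44, which missed the threshold (adjusted p = 0.067, edgeR quasi-likelihood, BH). It passed in 4 alternatives, edgeR with library totals, edgeR without control library 1 and both limma fits, and over all alternatives the adjusted p ran from 0.024 to 0.31 (BH). PQ was 1.98-fold below NAC (log2 -0.98 ± 0.09, adjusted p = 2.8e-07).

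Hmgb3, known from embryonic and blood progenitors, lies at chrX:68809093-68813851 on the plus strand (mm9). Its values were 107 and 106 FPKM in control, 64.5 and 76.5 in PQ and 101 and 95.9 in NAC libraries. Both PQ libraries were below all the others. Hmgb3 fell with PQ by 0.62 ± 0.10 on the log2 scale (adjusted p = 0.00036, edgeR quasi-likelihood, BH) and did not pass in NAC against control (log2 -0.16, adjusted p = 0.30). PQ and control differed by -0.78 in the column-kit and -0.47 in the TRIZOL libraries. Against NAC it was lower in PQ (log2 -0.46 ± 0.10, adjusted p = 0.0021), a call that was lost without PQ library 1 (adjusted p = 0.077, edgeR quasi-likelihood, BH).

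HMGN proteins loosen compact chromatin from within the nucleosome. Hmgn2, at chr4:133520653-133524565 on the minus strand (mm9), measured 301 and 255 FPKM in control, 181 and 181 in PQ and 408 and 394 in NAC libraries. The 3 groups did not overlap, and Hmgn2 was the only member with a called difference in opposite directions for PQ and NAC in which NAC was the higher. It fell with PQ by 0.65 ± 0.10 on the log2 scale (adjusted p = 0.00017, edgeR quasi-likelihood, BH), with -0.78 in the column-kit and -0.50 in the TRIZOL libraries. It rose with NAC by 0.48 ± 0.10, 1.40-fold (adjusted p = 0.0015, edgeR quasi-likelihood, BH). PQ lay 2.18-fold below NAC (log2 -1.13 ± 0.10, adjusted p = 1.2e-07, edgeR quasi-likelihood, BH).

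Hmgn1, the closest relative of Hmgn2, lies at chr16:96342225-96349336 on the minus strand (mm9). Its values were 256 and 231 FPKM in control, 193 and 189 in PQ and 234 and 228 in NAC libraries. The PQ libraries were lowest, and NAC and control libraries overlapped in FPKM. Hmgn1 fell with PQ by 0.38 ± 0.09 on the log2 scale (adjusted p = 0.0077, edgeR quasi-likelihood, BH), and this call was lost without control library 1 (log2 -0.29, adjusted p = 0.065), PQ library 1 (-0.38, 0.077) or PQ library 2 (-0.37, 0.058). The column-kit libraries gave -0.45 and the TRIZOL libraries -0.29. Hmgn1 did not pass in NAC against control (log2 -0.12, adjusted p = 0.41). The call in PQ against NAC (log2 -0.26 ± 0.09, adjusted p = 0.041, edgeR quasi-likelihood, BH) was lost without either PQ or either NAC library, and with the labelled protocol as a covariate, where the log2 fold change was -0.30 (adjusted p = 0.062).

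Hmgn5, an X-linked HMGN gene with a long acidic tail, lies at chrX:106199873-106208743 on the minus strand (mm9). It measured 52.8 and 38.8 FPKM in control, 32.1 and 33.2 in PQ and 47.0 and 48.5 in NAC libraries. The PQ libraries were lowest, and both NAC libraries lay between the control libraries. Hmgn5 fell with PQ by 0.51 ± 0.12 on the log2 scale (adjusted p = 0.0067, edgeR quasi-likelihood, BH), with -0.76 in the column-kit libraries and -0.23 in the TRIZOL libraries. Without control library 1 the value was -0.27 (adjusted p = 0.14), and without PQ library 1 it was -0.48 (adjusted p = 0.079, edgeR quasi-likelihood, BH). Against control, NAC gave 0.01, with a 95% interval from -0.24 to 0.27 (adjusted p = 0.96), and against NAC, Hmgn5 was lower in PQ (log2 -0.53 ± 0.12, adjusted p = 0.003).

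Hmgn3, known from neural and endocrine tissue, was the member that passed in 0 of the 3 comparisons. It lies at chr9:83003555-83040292 on the minus strand (mm9) and measured 79.5 and 63.0 FPKM in control, 83.0 and 86.1 in PQ and 80.8 and 81.4 in NAC libraries. Control library 2 was below the other 5 libraries, which lay close together. The log2 fold change was 0.22 in PQ against control, with a 95% interval from -0.02 to 0.45 (adjusted p = 0.21, edgeR quasi-likelihood, BH), 0.13 in NAC against control and 0.08 in PQ against NAC. PQ against control differed between protocols, at 0.45 in the TRIZOL libraries and 0.00 in the column-kit libraries, and passed without control library 1 (log2 0.40, adjusted p = 0.023, edgeR quasi-likelihood, BH).

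**Figure D2:**
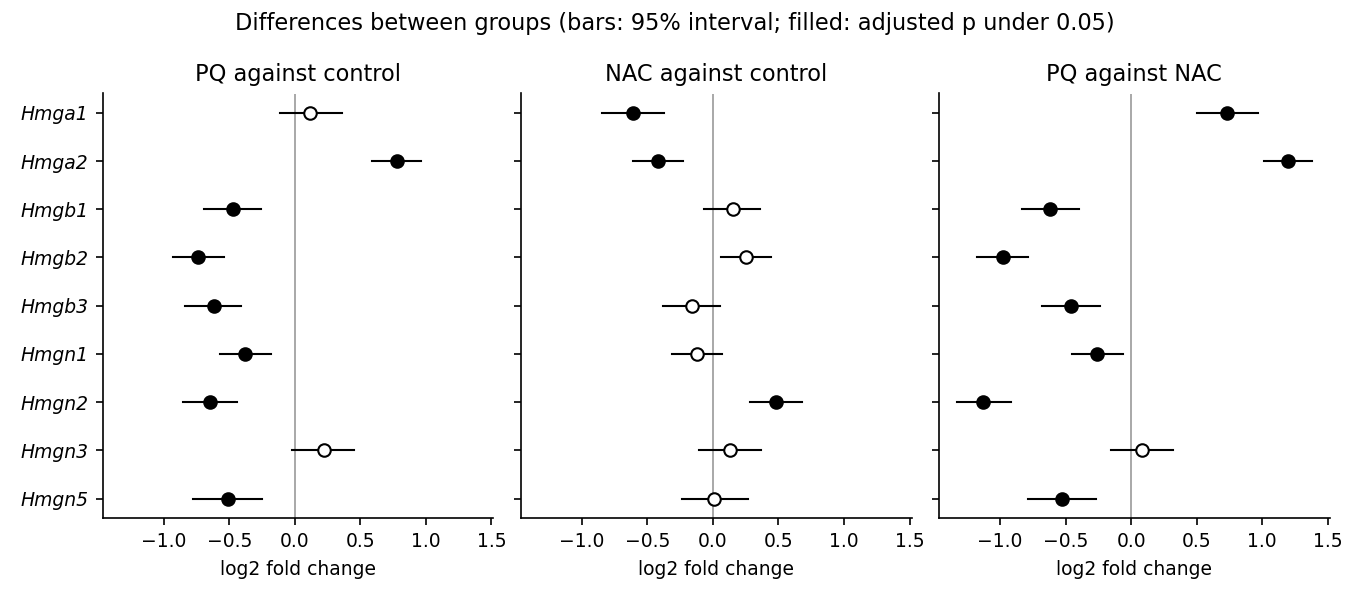
Log2 fold change (horizontal axes) of the 9 HMG genes in the 3 comparisons, with 95% intervals from the edgeR fit; filled points have an adjusted p under 0.05. In PQ against control Hmga2 lies at 0.78 and the 6 lower genes between -0.74 and -0.38.

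Hmga2 thus moved apart from Hmgb2 and Hmgn2, while Hmga1 and Hmgn3 did not pass in PQ against control. The ratio of Hmga2 to Hmgb2 FPKM was 0.399 and 0.425 in control, 1.25 and 1.10 in PQ and 0.253 and 0.264 in NAC libraries. The ratio of Hmga2 to Hmgn2 was 0.226 and 0.257 in control, 0.666 and 0.621 in PQ and 0.124 and 0.134 in NAC libraries. Both ratios were highest in PQ and lowest in NAC libraries, without overlap, and need no scaling between libraries. The 3 HMGB genes summed to 801.2 and 722.3 FPKM in control, 498.9 and 563.9 in PQ and 902.2 and 819.3 in NAC libraries. The 4 HMGN genes summed to 689.5 and 587.6, 489.1 and 489.5, and 770.4 and 751.8 FPKM in the same order. Both sums, the second of which includes Hmgn3, were lowest in PQ libraries and highest in NAC libraries. All 9 genes together held 0.374 and 0.340% of the summed FPKM in control, 0.278 and 0.287% in PQ and 0.418 and 0.394% in NAC libraries. Within the HMGN class, the ratio of Hmgn2 to Hmgn1 was 1.18 and 1.11 in control, 0.939 and 0.959 in PQ and 1.74 and 1.72 in NAC libraries.

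**Figure D3:**
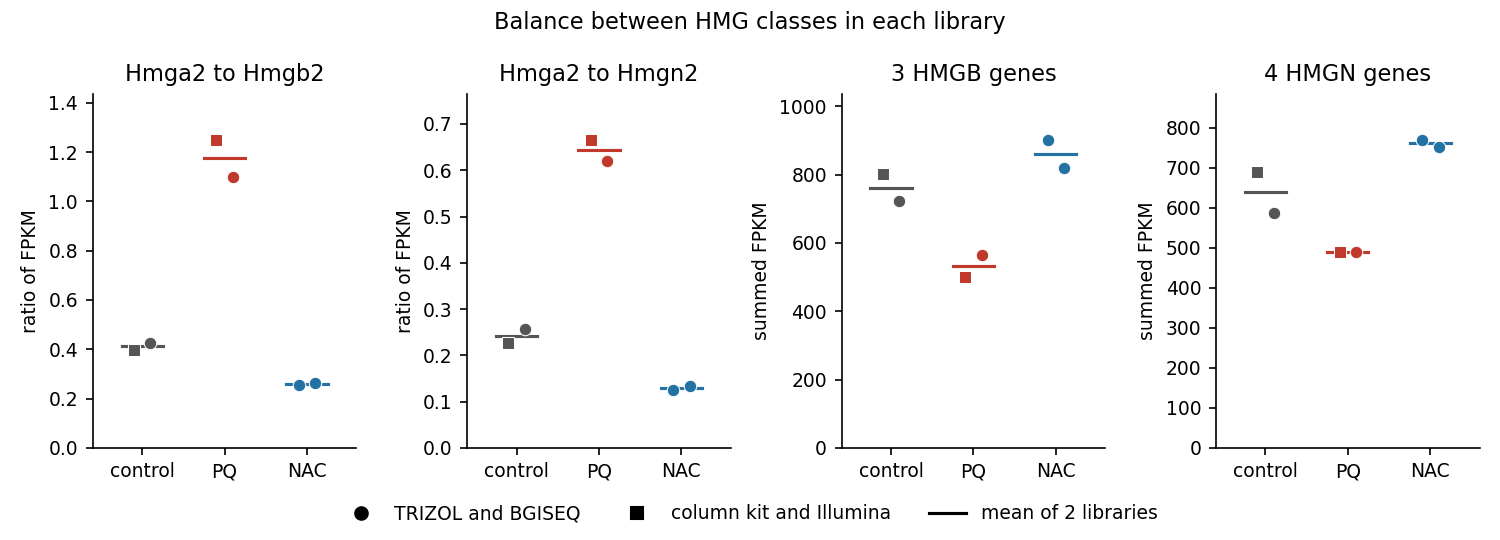
Ratios of FPKM (left panels) and summed FPKM of the HMGB and HMGN genes (right panels) in each library, by group; circles are TRIZOL and BGISEQ-500 libraries, squares column-kit and Illumina libraries, bars the mean of 2 libraries. The ratio of Hmga2 to Hmgb2 is above 1 in both PQ libraries and at most 0.425 in the other 4.

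The members differ in how much of their sequence is theirs alone. HMG transcripts are known to have often been copied back into the genome. In the mm9 genome, 89.2% of the 50-base windows of the longest Hmgn2 transcript recurred outside the gene, at 32 places. The share was 75.0% for Hmgb3, 72.5% for Hmgb1 with 160 places, 34.2% for Hmgb2, 28.6% for Hmgn1, 26.4% for Hmga2 and 25.9% for Hmgn5, and Hmga1 is left out of this comparison. Hmgn3 had 0 such windows. The place with the most windows overlapped Hmgn2-ps1 for Hmgn2 (70.9% of its windows) and Hmgb1-ps1 for Hmgb1 (40.3%). For Hmgb2 that place overlapped no annotated gene (30.0%). Of all places, 14 of 32 for Hmgn2 and 83 of 160 for Hmgb1 overlapped no annotated gene. The part of copies in the shares as a whole was not tested. No window was shared between members. Expected counts were fractional in all 6 libraries for Hmga1, Hmgb1 and Hmgb3 and in 5 libraries for Hmgb2, whereas Hmga2 and the 4 HMGN genes had whole counts in every library. Fractional counts arise when reads that fit several transcripts are shared out, and how they divide here was not tested. Hmgn2 had whole counts despite the largest share of repeated windows. Of 17 genes of the NCBI table that are named as pseudogenes of these families, only 2 were listed in any library, and reads from a copy that a count table does not list could be assigned to its parent; this was not tested. Of the 2 listed, Hmga2-ps1 held between 6.62 and 8.60% of the counts of Hmga2, and Hmgb1-rs17 between 0.457 and 0.744% of those of Hmgb1. Hmga2-ps1 measured 14.3 and 16.0 FPKM in control, 26.3 and 23.8 in PQ and 9.52 and 10.2 in NAC libraries, the same order of groups as Hmga2. Its log2 fold change in PQ against control was 0.70 ± 0.13 (adjusted p = 0.00094, edgeR quasi-likelihood, BH). With Hmga2-ps1 added to Hmga2, the log2 fold change of Hmga2 was 0.77.

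**Figure D4:**
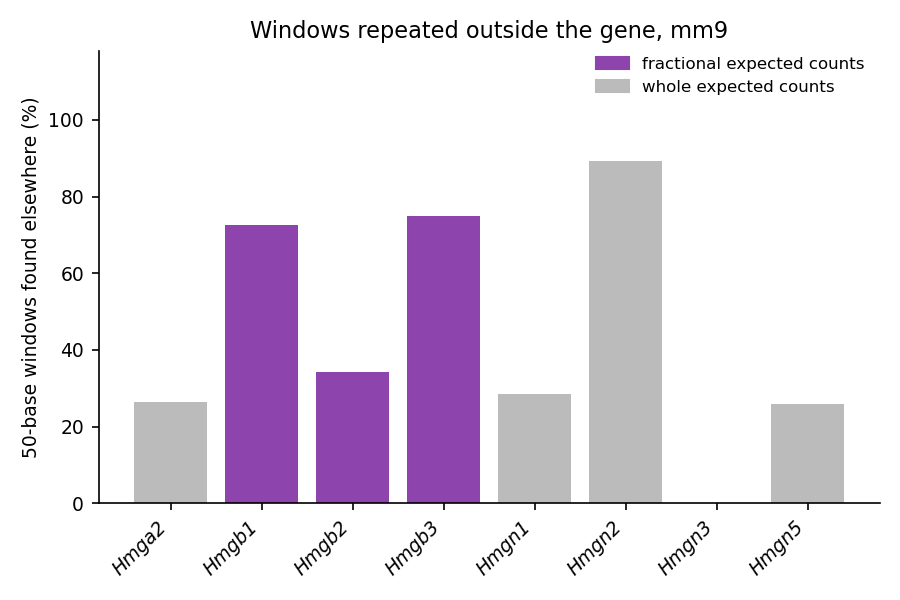
Share of 50-base windows (%, vertical axis) of the longest transcript of 8 HMG genes (Hmga1 left out) that recur elsewhere in the genome, with genes whose expected counts were fractional in some library in purple. Hmgn2 has the highest share, 89.2%, with whole counts, and Hmgn3 has 0.

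The promoters of the members are described next, and no shared cause was tested. RefSeq promoters (250 bases before to 50 after the start, GRCm38.p6) were found for 8 of the 9 members, in 10 windows; Hmgn3 had none. On both strands the letters CCAAT (the box bound by NF-Y), TTTGAA (the core of the CHR element of cell-cycle genes), and TTTCCCGC, TTCCCGCC and TTGGCGC (E2F-like sites, of which the first 2 overlap by 7 letters) were searched. CCAAT occurred in 6 of the 8 members, beside 41.1% of all 27025 genes in the table. The 6 were Hmgb1, Hmgb2, Hmgb3, Hmgn1, Hmgn2 and Hmgn5, with 3 matches in 1 of the 2 windows of Hmgb1, 4 in Hmgb2, 3 in Hmgb3, 2 in Hmgn1, 1 in Hmgn2 and 2 in Hmgn5. Neither Hmga1 nor Hmga2 held it in these windows. TTTGAA occurred in Hmgb2 and Hmgb3, beside 20.2% of all genes. TTCCCGCC occurred once, in Hmga2, beside 2.52% of all genes, and TTTCCCGC and TTGGCGC (1.24 and 2.85% of all genes) occurred in 0 members. The 250 bases before the start of Hmgb2 (chr8:57511593-57511842, plus strand) and 137 of those before the start of Hmgb3 (chrX:71555780-71555916, plus strand) are printed with the first and second of these motifs, on either strand, in capitals:
Hmgb2: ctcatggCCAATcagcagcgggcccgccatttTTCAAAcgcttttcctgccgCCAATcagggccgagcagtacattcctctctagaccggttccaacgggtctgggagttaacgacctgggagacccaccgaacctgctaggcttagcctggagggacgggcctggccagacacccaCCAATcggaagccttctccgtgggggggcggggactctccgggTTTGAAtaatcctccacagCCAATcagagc
Hmgb3: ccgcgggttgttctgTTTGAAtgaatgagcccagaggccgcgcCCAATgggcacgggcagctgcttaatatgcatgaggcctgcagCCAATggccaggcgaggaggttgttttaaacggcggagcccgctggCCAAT
In Hmgb2 a TTTGAA began 30 bases and a CCAAT 11 bases before the start, and in Hmgb3 the last CCAAT ended at the base before it. Binding of any factor to these letters was not analysed here.

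The fall of Hmgb2 and of 5 other members ran beside that of genes used in cell division. Of 25 proliferation genes, 23 were lower and 0 higher in PQ against control, with a median log2 fold change of -0.64 (edgeR quasi-likelihood, BH). In NAC against control 1 was higher and 1 lower, with a median of 0.14. Mki67, the Ki-67 antigen, measured 101 and 104 FPKM in control, 44.6 and 50.5 in PQ and 135 and 119 in NAC libraries. Top2a, the topoisomerase of dividing cells, measured 162 and 163, 92.7 and 109, and 194 and 175 FPKM in the same order. Both genes were lowest in PQ and highest in NAC libraries, the order that Hmgb2 and Hmgn2 also had. Neither passed in NAC against control (adjusted p = 0.068 for Mki67 and 0.38 for Top2a, edgeR quasi-likelihood, BH). Mybl2 was also lowest in PQ, at 5.63 and 5.10 FPKM. Its NAC libraries, at 10.1 and 10.3, lay between the control libraries, at 9.87 and 11.8. The part of cell division in the members' values was not tested.

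Other chromatin partners were set beside the members. Of 10 histone chaperones, 7 were lower and 0 higher in PQ against control (median log2 fold change -0.50), and 0 passed in NAC against control with edgeR, whose median was 0.07. Among them Ssrp1, the HMG-box subunit of the FACT complex, fell with PQ by 0.49 ± 0.09 on the log2 scale (adjusted p = 0.0007, edgeR quasi-likelihood, BH), from 158 and 151 FPKM in control to 111 and 113 in PQ libraries. Chaf1b, a subunit of the replication-coupled chaperone CAF-1, fell by 0.60 ± 0.11 (adjusted p = 0.00091, edgeR quasi-likelihood, BH). Of 30 other HMG-box genes, 27 were tested, and 7 were lower and 0 higher in PQ than in control libraries (median -0.13). In NAC against control 4 of them were higher and 2 lower, with a median of 0.07. Sox2, the HMG-box factor of neural stem cells, measured 164 and 141 FPKM in control, 122 and 121 in PQ and 124 and 130 in NAC libraries.

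Of 3 linker histones tested, whose place on the nucleosome HMGN and HMGA proteins contest, H1f2 rose with PQ by 0.72 ± 0.12 on the log2 scale (adjusted p = 0.00041, edgeR quasi-likelihood, BH). It also rose with NAC, by 0.56 ± 0.12 (adjusted p = 0.0029, edgeR quasi-likelihood, BH). H1f0, the replacement histone of resting cells, fell with PQ by 0.38 ± 0.10 (adjusted p = 0.014) and with NAC by 0.49 ± 0.10 (adjusted p = 0.0019, edgeR quasi-likelihood, BH). H1f2 measured 22.2 and 18.1 FPKM in control, 34.0 and 33.9 in PQ and 29.0 and 32.5 in NAC libraries, with control lowest. In the SET complex and its nucleases, which act with HMGB2, 3 of 7 genes were lower and 0 higher in PQ against control (median -0.26). Anp32b, a histone-binding protein of this list, fell by 0.50 ± 0.10 on the log2 scale (adjusted p = 0.0026, edgeR quasi-likelihood, BH).

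Of 13 genes for receptors and partners of HMGB1 outside the nucleus, 9 were tested, of which 4 were higher and 0 lower in PQ against control (median log2 fold change 0.26), and 5 were higher and 0 lower in NAC against control (median 0.65). Tlr2, a receptor for HMGB1, measured 0.74 and 0.79 FPKM in control, 3.81 and 2.51 in PQ and 3.86 and 3.64 in NAC libraries. It was higher in both treatments than in either control library, at a low level throughout, and its control mean of 0.765 FPKM was below the filter, which it passed through the treated libraries. Casp1, the inflammasome protease upstream of HMGB1 release, rose with PQ by 1.23 ± 0.21 on the log2 scale (adjusted p = 0.00042, edgeR quasi-likelihood, BH). With NAC it rose as well, by 0.65 ± 0.22 (adjusted p = 0.043, edgeR quasi-likelihood, BH).

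**Figure D5:**
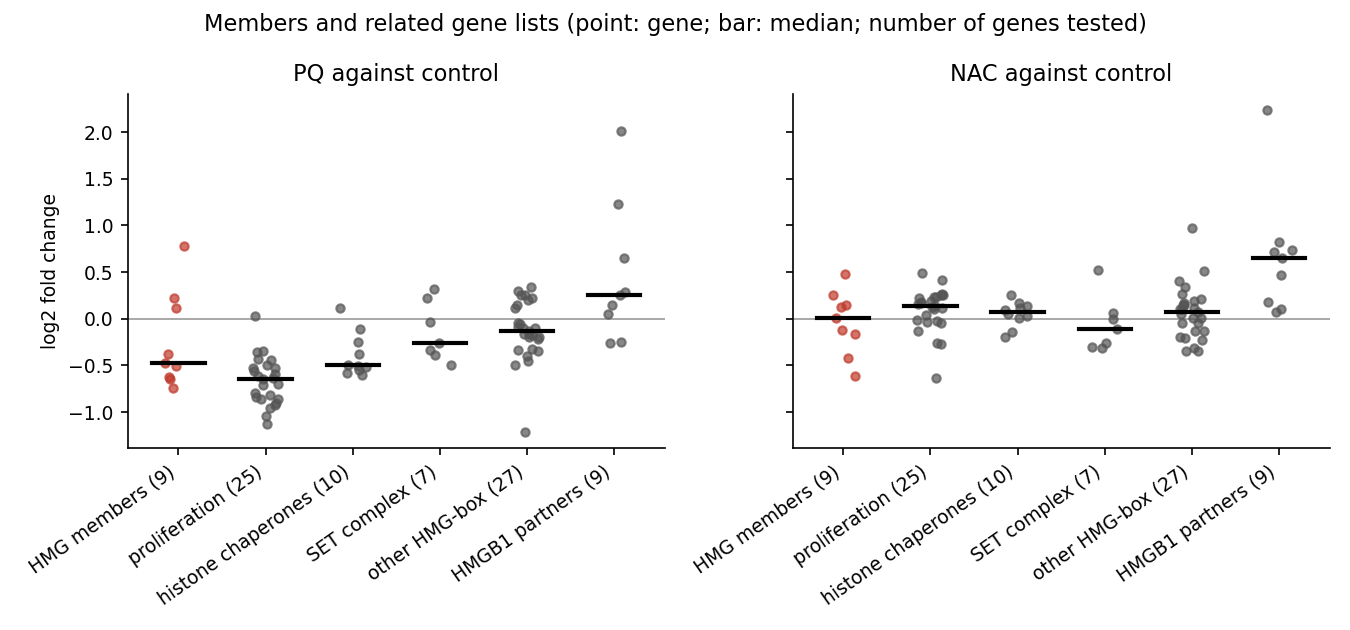
Log2 fold change (vertical axis) of the 9 HMG genes (red) and of the tested genes of 5 related lists (grey) in PQ against control and NAC against control; each point is a gene, each bar the median, and the number of genes tested is in brackets. In PQ against control the median is -0.47 for the HMG genes and -0.64 for the proliferation genes.

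The label of the cells was checked against marker genes. The 10 NSPC markers summed to 3349.3 and 3430.7 FPKM in control, 3720.0 and 3772.3 in PQ and 2615.6 and 2539.5 in NAC libraries, highest in PQ and lowest in NAC. Of the 9 tested, 1 was higher and 2 were lower in PQ against control, and 0 were higher and 3 lower in NAC against control. Vim, the most abundant of them, fell with NAC by 0.75 ± 0.08 on the log2 scale (adjusted p = 3.8e-06, edgeR quasi-likelihood, BH). Sums over the markers of microglia, endothelium, and fibroblasts and pericytes were at most 1.2, 0.6 and 1.9 FPKM in any library. Glial lineage markers were not low. The oligodendrocyte-lineage markers summed to between 651.7 and 925.6 FPKM by library, with Olig1 the most abundant. The astrocyte markers summed to between 220.6 and 244.7 FPKM, with Gja1 the most abundant. Of 8 neuronal markers only Map2 passed the filter, and it rose with NAC by 0.77 ± 0.10 on the log2 scale (adjusted p = 1.1e-05, edgeR quasi-likelihood, BH); Rbfox3 was at 0 in every library. Tubb3, below the filter and not tested, measured 2.38 and 1.30 FPKM in control, 0.72 and 0.47 in PQ and 0.32 and 0.44 in NAC libraries, lowest in NAC libraries. Of 6 astrocyte markers, 3 were higher and 1 lower in NAC against control, and 2 were higher and 1 lower in PQ against control. Aqp4, among the 3, passed the filter only through its NAC libraries, with mean FPKM of 0.745 in control, 0.685 in PQ and 2.61 in NAC. Of 9 markers of the oligodendrocyte lineage, 4 were tested, and 3 were higher in NAC against control and 0 passed in PQ against control; Mog and Mag were at 0. The part of cell composition in the HMG values was not tested.

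The genes whose profile over the 6 libraries lay nearest to that of a member were found by the Euclidean distance between log2 CPM values (counts scaled by library), centred on each gene's mean. For Hmga2 they were Olfm1, Mdm2 and Ak1, at distances of 0.170, 0.171 and 0.175. For Hmgb2 they were Kif2c (0.129), Lfng (0.154) and Zfp367 (0.182), and for Hmgn2 they were Mamdc2 (0.142), Ctsc (0.153) and Oip5 (0.160). Mdm2, the ubiquitin ligase that limits p53, measured 45.8 and 39.8 FPKM in control, 70.2 and 67.6 in PQ and 32.7 and 32.1 in NAC libraries. Kif2c, a mitotic kinesin, measured 32.8 and 31.0, 19.4 and 21.1, and 40.4 and 37.0 FPKM in the same order. The distance describes these 6 libraries only.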

How the data were processed

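The authors deposited, for each of the 6 libraries, a table of genes with an expected count (an estimated number of reads per gene) and an FPKM value scaled for transcript length and library total; the deposited tables also list another value, the transcript length. Genes left out of a table were taken as 0. The submitters' processing notes name mm9, TopHat2 2.0.11 and Cufflinks 2.1.1 for control library 1 and PQ library 1, and mm10, HISAT2 2.0.4, Bowtie2 2.2.5 and RSEM for the other 4, whereas all 6 tables have the same columns. Whether strand was used in counting is not given in the sources used here. Whole numbers made up 78.6 to 79.1% of these counts, by library (tolerance 1e-09).

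Symbols were matched by NCBI gene identifier for 99.7% of genes. Expected counts were rounded, scaled by TMM and tested two-sided with edgeR 4.0.16 (glmQLFit, glmQLFTest, all 6 libraries, no covariate) in R 4.3.3 on the 11717 genes whose FPKM averaged 1 or more, adjusted over them by Benjamini-Hochberg, at a threshold of 0.05. Alternatives were DESeq2 1.42.0 (its size factors, and its Wald test), library totals, no filter, the labelled protocol as a covariate, only the 4 libraries compared, limma 3.58.1 on log2(FPKM + 1) and log2(FPKM + 0.1), a 1.5-fold minimum, each library left out, and, chosen after seeing the data, counts summed with named copies. Coordinates and transcripts are from GENCODE vM1 on mm9; windows of 50 bases were matched exactly on both strands outside each gene's own span. The members, lists and motifs were chosen with earlier results of these data known. Genes printed are the members, 2 pseudogenes with their values and 2 by place alone, and the 3 nearest in profile to Hmga2, Hmgb2 and Hmgn2. From each list they are the 2 with the highest mean FPKM and the 2 with the largest change in PQ against control. Lin28a, Lin28b, Igf2bp1, Aqp4, Tubb3, Rbfox3, Mog and Mag were named after their values were seen. Protein sequences were not used here, and results that need items withheld for evaluation are left out.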

Additional observations from a re-analysis of the deposited data

How the results depend on the processing

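With 2 libraries a group, a library left out leaves a lone library that is assumed to vary like the other groups. Of the members' log2 fold changes under all alternatives, 128 kept their direction and side of the threshold in PQ against control, 6 missed the threshold and 1 newly passed it; the numbers were 128, 0 and 4 in NAC against control, where 3 changed sign, and 129, 6 and 0 in PQ against NAC. The 3 that changed sign were values near 0 in NAC against control: Hmgn3 at -0.03 and Hmgn5 at -0.20 without control library 2, and Hmgn5 at 0.00 without NAC library 2; without control library 1 the same comparison gave 0.32 for Hmgn3 and 0.26 for Hmgn5, and the cause was not tested. Leaving out single libraries gave between 4 and 7 members called in PQ against control, 3 and 4 in NAC against control and 6 and 8 in PQ against NAC, and between 866 and 2206, 1286 and 2126, and 2343 and 4207 genes called in the same order, with fewer samples in each fit. In PQ against control PQ library 1 had the largest effect of any library: without it 4 members and 866 genes were called. In NAC against control it was NAC library 1, with 1286 genes called without it and 1427 without NAC library 2. A minimum of 1.5-fold beside the adjusted p, which by construction only removes calls, left 4 members and 906 genes in PQ against control (504 higher, 402 lower), 1 member and 1016 genes in NAC against control, and 5 members and 1686 genes in PQ against NAC. The calls of Hmga2 in all 3 comparisons, of Hmgb2 in PQ against control and PQ against NAC, and of Hmgn2 in all 3 passed in every fit when no fold minimum was set, with log2 fold changes of Hmga2 between 0.74 and 0.81 in PQ against control. The labels carry no replicate numbers shared between groups, so the labelled protocol, which pairs the libraries of PQ and control, served as the block and gave 7 members in PQ against control, 3 in NAC against control and 7 in PQ against NAC, with 2067, 1689 and 2903 genes called in the same order, beside 2250, 2186 and 3708 without the block. The cause of other changes was not tested.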
